A study of Mus musculus with 10 samples.

Results

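The genes described here are 9 markers of macrophage identity and state in B16F10 tumors, found by symbol among 55401 gene rows of the count tables. *Adgre1* and *Csf1r* stand for macrophages as a whole, and *Mrc1*, *Nos2*, *Trem2*, *Spp1*, *Apoe*, *Folr2* and *Ly6c2* mark states that macrophages or their monocyte precursors can take. Each symbol occurred once, and all 9 passed the filter on low counts, which left 15821 genes. The question was whether the state genes differed between tumors of cells edited at *Mir25* (KO) and tumors of cells given a non-targeting guide (NTC), in the tumor as a whole and as ratios to *Adgre1* and *Csf1r*.

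Bulk RNA sequencing covered 10 subcutaneous tumors of B16F10 melanoma cells, 5 KO and 5 NTC, each taken on day 15 from a C57BL/6J mouse. Per the study's methods the mice were female and 9 to 12 weeks old. Every mouse received Comb, the combination of GVAX, a vaccine of irradiated B16 cells that secrete GM-CSF, with αPD-1. GVAX was given on days 1 and 4, and αPD-1 followed on days 6, 9 and 12 at a dose of 10 mg/kg. No untreated tumor was analysed here. Thus all macrophages measured here came from mice exposed to a vaccine that delivers a myeloid growth factor. The edit was made with Cas9 in the tumor cells, and the labels do not say whether an edited population or a single clone was injected. The host's own cells, macrophages included, kept an intact *Mir25*.

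The product of the edited locus is shown because it is the only designed difference between the groups. It is the mature strand of miR-25, from RefSeq on GRCm38.p6, at chr5:138165332-138165353 on the minus strand, with the seed (bases 2 to 8) in capitals.
mmu-miR-25-3p: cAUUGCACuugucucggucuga
The *Mir25* gene row held 0 reads in all 10 libraries, so these libraries do not check the edit.

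Tumor-associated macrophages (TAMs) arise from blood monocytes and from cells resident in the tissue, and depend on signaling through the receptor that *Csf1r* encodes. In tumors they range from inflammatory cells that make nitric oxide through *Nos2* to cells that carry the mannose receptor encoded by *Mrc1* or take up lipid with *Trem2* and *Apoe*. Several of these genes are also used by other cells, such as *Spp1* and *Apoe* by stromal and tumor cells, so a bulk level cannot be assigned to macrophages alone.

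Reads counted on genes numbered 23243707 to 27006075 in KO tumors and 11896643 to 28682130 in NTC tumors. The smallest library, NTC replicate 1, stood apart. Of its file's reads 42.9% were assigned to no annotated feature, against 17.5% to 28.2% in the other 9 libraries. It had reads on 33193 genes, against 22192 to 25435 genes in the other 9 libraries. Fold changes, ratios, lists and correlations are therefore given over all 10 tumors and over the 9 without it, while the order of levels, the ranking of similar genes and the ratios to other denominators are given over the 10 alone. Levels are CPM, counts scaled to library size with TMM factors, and ratios are taken between counts of the same library and do not depend on the scaling. The melanoma cell list had a summed level of 11685 CPM in NTC replicate 1, 12227 to 20280 CPM in KO tumors and 19769 to 22262 CPM in the other NTC tumors. All 16 genes of the pan-macrophage list were detected and tested.

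*Adgre1*, which encodes the F4/80 surface receptor, spanned a 21.1-fold range over the 10 tumors. In KO replicates 1 to 5 it stood at 159, 437, 111, 106 and 414 CPM. In NTC replicates 1 to 5 it stood at 341, 26.2, 120.0, 20.7 and 122 CPM. KO replicates 2 and 5 and NTC replicate 1 were high, NTC replicates 2 and 4 were low, and the groups overlapped. The mean was 245 ± 166 CPM in KO tumors and 126 ± 130 CPM in NTC tumors (SD, n = 5 each), or 72.2 ± 56.3 CPM in the 4 other NTC tumors. By edgeR's quasi-likelihood test the log2 fold change, KO over NTC, was 0.97 (SE 0.74, adjusted p = 0.735). It was 1.73 (SE 0.66, adjusted p = 0.208) without NTC replicate 1. The gene lies at chr17:57358691-57483527 on the plus strand of GRCm38.

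*Csf1r*, the receptor for CSF1 and IL-34 (chr18:61100598-61132149, plus strand), was high and low in the same tumors. Its level was 213, 393, 115, 99.5 and 421 CPM in KO tumors and 347, 30.3, 91.2, 29.0 and 119 CPM in NTC tumors. The same 3 tumors were high and the same 2 were low. The log2 fold change was 1.01 (SE 0.70, adjusted p = 0.712), and 1.84 (SE 0.57, adjusted p = 0.175) without NTC replicate 1. *Csf1r* divided by *Adgre1* gave a count ratio of 1.34, 0.899, 1.03, 0.937 and 1.02 in KO tumors and of 1.02, 1.16, 0.760, 1.40 and 0.981 in NTC tumors. Both genes thus tracked each other within 1 tumor while their levels differed many fold between tumors. The difference in mean log2 ratio, KO minus NTC, was -0.01, with a 95% interval of -0.41 to 0.42 (2-sided exact permutation test over tumors, p = 0.960), and -0.02 (interval -0.46 to 0.45, p = 0.929) without NTC replicate 1. *Csf1r* overlaps *Hmgxb3* on the other strand, and the strand setting of the counting was not given in the sources used here. Annotated genes also overlap *Folr2* on the other strand, and *Spp1*, *Mrc1* and *Csf1r* on the same strand. In bulk tissue, fewer macrophages and less RNA per macrophage cannot be told apart.

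**Figure D1:**
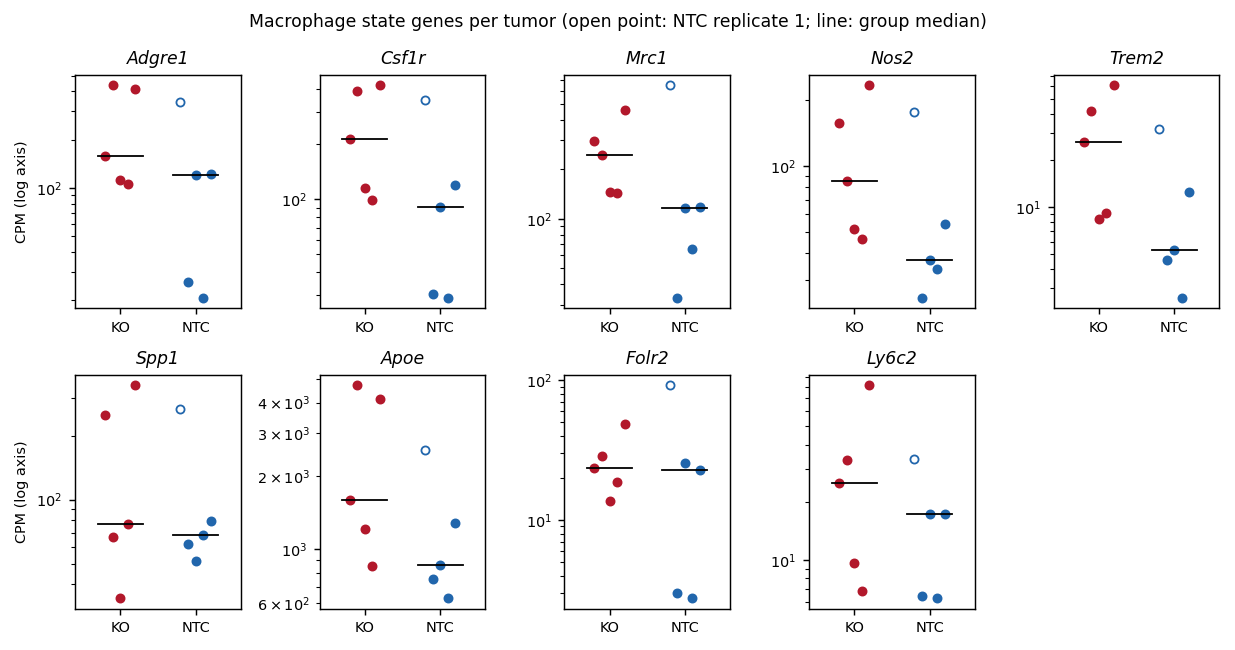
Level of each gene in each tumor, in CPM on a log axis, for 5 KO and 5 NTC tumors, with the group median as a line and NTC replicate 1 as an open point. For *Mrc1* the 5 KO tumors, at 144 to 457 CPM, sit above the 4 filled NTC points, at 33.0 to 118 CPM, and for every gene the KO points overlap the NTC points once the open point is included.

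No member was called different between the groups. A call needed an adjusted p under 0.05 over all tested genes and an absolute log2 fold change above 1. Over 10 tumors edgeR called 0 of 9 members, where 0.0190% of all genes were called, and 0 of 9 had an unadjusted p under 0.05, where 8.85% of all genes did. DESeq2 also called 0 of 9, against 0.607% of all genes. *Trem2* and *Apoe* had an unadjusted DESeq2 p under 0.05 with a higher level in KO tumors, as did 4.65% of all genes, and their DESeq2 adjusted p was 0.470 and 0.463. Over the 9 tumors edgeR again called 0 of 9, against 0.106% of all genes. In those 9 tumors 6 of 9 members had an unadjusted p under 0.05 with a higher level in KO tumors, against 12.0% of all genes. These were *Adgre1*, *Csf1r*, *Mrc1*, *Nos2*, *Trem2* and *Apoe*. Most members followed *Adgre1* across tumors (below), so such counts of members are not independent evidence.

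The fitted fold change was above 0 for 8 of 9 members over all tumors, with a median log2 value of 0.97 against 0.01 over all tested genes. *Folr2* was the exception. The fit compares group levels and does not average logs, as the ratios below do. By the difference in mean log2(CPM + 0.5) over 10 tumors every member was higher in KO tumors, from 0.35 (*Spp1*) to 1.45 (*Trem2*). On that scale *Folr2* was at 0.78 and *Mrc1* at 1.03, and these differences were not tested. With NTC replicate 1 left out the fitted fold change was above 0 for 9 of 9, with a median of 1.58 against -0.02. Over 10 tumors no member's CPM values were separated between the groups, as 2.34% of all genes' values were. Over the 9 tumors only *Mrc1* was separated, with every KO tumor above every NTC tumor, as were 2.75% of all genes.

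*Mrc1*, which encodes the mannose receptor CD206 (chr2:14229392-14332057, plus strand), was measured at 297, 244, 146, 144 and 457 CPM in KO tumors. The NTC tumors had 650.0, 33.0, 117, 65.7 and 118 CPM. NTC replicate 1 was the highest of all 10 tumors and the other 4 NTC tumors were the lowest. The log2 fold change was 0.39 (SE 0.72, adjusted p = 0.889) with that tumor and 1.59 (SE 0.44, adjusted p = 0.147) without it, the smallest adjusted p of any member in the 9 tumors.

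*Nos2*, the inducible nitric oxide synthase of inflammatory macrophages (chr11:78920787-78960254, plus strand), reached 157, 85.3, 51.5, 46.5 and 233 CPM in KO tumors and 176, 24.9, 37.0, 33.6 and 54.3 CPM in NTC tumors. KO replicates 1 and 5 and NTC replicate 1 were the highest. Its log2 fold change was 0.83 (SE 0.62, adjusted p = 0.729), and 1.58 (SE 0.48, adjusted p = 0.168) without NTC replicate 1.

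*Trem2*, a lipid-sensing receptor (chr17:48346401-48354147, plus strand), had the largest fitted fold change of the members in both fits. Its level was 26.2, 41.3, 8.32, 9.19 and 61.0 CPM in KO tumors and 31.9, 4.53, 5.27, 2.60 and 12.5 CPM in NTC tumors. KO replicates 1, 2 and 5 exceeded NTC replicates 2 to 5, and KO replicates 3 and 4 lay among them. Its log2 fold change was 1.40 (SE 0.76, adjusted p = 0.634) over 10 tumors and 2.18 (SE 0.66, adjusted p = 0.169) over 9. *Trem2* was the least counted member, with 64 reads in its lowest library.

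*Apoe*, apolipoprotein E (chr7:19696109-19699188, minus strand), was the most abundant member. KO tumors had 1585, 4702, 1212, 856 and 4150 CPM and NTC tumors had 2562, 756, 858, 629 and 1283 CPM. The highest values belonged to KO replicates 2 and 5, as for *Adgre1*. KO over NTC, the log2 fold change was 1.04 (SE 0.55, adjusted p = 0.631), and 1.46 (SE 0.50, adjusted p = 0.187) without NTC replicate 1.

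*Spp1*, which encodes the secreted matrix protein osteopontin (chr5:104435118-104441050, plus strand), had a different order of tumors from *Adgre1*. It stood at 250.4, 66.9, 34.4, 77.0 and 344 CPM in KO tumors and at 268, 62.0, 51.3, 68.0 and 79.7 CPM in NTC tumors. KO replicate 2, with the most *Adgre1*, had *Spp1* within the range of NTC replicates 2 to 5, and KO replicate 3 had the least of all. Its log2 fold change was 0.55 (SE 0.67, adjusted p = 0.836) and, without NTC replicate 1, 1.20 (SE 0.60, adjusted p = 0.289).

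*Folr2*, folate receptor beta (chr7:101839988-101857194, minus strand), marks resident-like macrophages. Its level was 23.5, 28.7, 13.7, 18.8 and 48.4 CPM in KO tumors. In NTC tumors it was 91.6, 2.99, 25.5, 2.77 and 22.8 CPM, a 33.1-fold range over all tumors and the widest of the members. NTC replicates 3 and 5 lay within the KO range and NTC replicates 2 and 4 below it. Its log2 fold change was -0.11 (SE 0.83, adjusted p = 0.979), and 0.94 (SE 0.67, adjusted p = 0.442) without NTC replicate 1.

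*Ly6c2*, an antigen of classical monocytes (chr15:75108158-75111970, minus strand), was measured at 25.2, 33.2, 9.57, 6.88 and 81.7 CPM in KO tumors and at 33.5, 6.50, 17.3, 6.30 and 17.4 CPM in NTC tumors. KO replicate 5 was far above the other tumors, and KO replicates 3 and 4 lay below NTC replicates 3 and 5. KO over NTC, the log2 fold change was 0.97 (SE 0.69, adjusted p = 0.720) and 1.35 (SE 0.68, adjusted p = 0.296) without NTC replicate 1. Of the 50-base stretches of *Ly6c2* exons 13.9% also occur in its neighbor *Ly6c1*, and of the 100-base stretches 5.81%. Reads that aligned to more than 1 place were left out of the gene counts, so reads from these stretches may be missing.

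Per length, the members were ordered by their median levels. Median RPKM over 10 tumors, from exon lengths of GENCODE M21, was 584 for *Apoe*, 44.0 for *Spp1* and 37.3 for *Adgre1*. It was 22.8 for *Mrc1*, 20.3 for *Csf1r*, 14.97 for *Folr2*, 12.0 for *Nos2*, 6.33 for *Ly6c2* and 2.20 for *Trem2*. *Apoe* was first and *Trem2* last in all 10 tumors. *Spp1* exceeded *Adgre1* in 7 of 10 tumors, *Mrc1* exceeded *Csf1r* in 6 of 10 and *Folr2* exceeded *Nos2* in 4 of 10, so these neighbors were not separated. The annotated exons of *Trem2* span 4946 bases, and its RPKM falls if most reads come from a shorter transcript. The order was the same with the longest transcript as the length.

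The ratios to *Adgre1* and *Csf1r* carry the main comparison. They do not remove macrophage content where a gene is also used by other cells. For 6 of the 7 state genes the mean log2 ratio was lower in KO than in NTC tumors with either denominator, and for *Trem2* it was higher. A lower value on this scale is not particular to these genes, since 333 of 15821 genes had a fold change above 0 in the fit of every gene to both denominators. None of these 14 differences had an exact permutation p under 0.05 over 10 tumors, where the smallest p possible was 0.00794, and p-values are unadjusted. The ratios of all 7 genes share their denominator, so their common direction is not independent evidence. No state gene's ratio was separated between groups over 10 tumors, as was the case for 0.619% of all genes with *Adgre1* and 1.24% with *Csf1r*. The same held without NTC replicate 1, where 7.48% and 13.8% of all genes were separated.

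*Ly6c2* came nearest to a difference in ratio. Its count per *Csf1r* count was 0.118, 0.0846, 0.0831, 0.0694 and 0.194 in KO tumors and 0.0967, 0.215, 0.190, 0.218 and 0.146 in NTC tumors. KO replicate 5 lay among NTC replicates 2 to 5, while the 4 other KO tumors lay below them. The mean log2 ratio was -3.29 ± 0.59 in KO and -2.59 ± 0.49 in NTC tumors (SD, n = 5 each), a difference of -0.70 (interval -1.42 to 0.11, exact permutation p = 0.0873). Without NTC replicate 1 the difference was -0.89 (interval -1.61 to -0.13, exact permutation p = 0.0397), the only one of the 14 ratios under 0.05, unadjusted. To *Adgre1* the difference was -0.71 (interval -1.83 to 0.45, exact permutation p = 0.151), and -0.91 (interval -1.98 to 0.40, p = 0.0794) without that tumor. The lower *Ly6c2* ratios of 4 of 5 KO tumors stood beside a fitted fold change above 0 for its level in the whole tumor.

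*Mrc1* per *Adgre1* was 1.87, 0.559, 1.31, 1.36 and 1.10 in KO tumors and 1.91, 1.26, 0.972, 3.16 and 0.972 in NTC tumors. NTC replicates 1 and 4 lay above every KO tumor and KO replicate 2 lay below every NTC tumor. The difference was -0.36 (interval -1.50 to 0.56, exact permutation p = 0.452), or -0.27 (p = 0.595) without NTC replicate 1.

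*Nos2* per *Adgre1*, the inflammatory ratio, was 0.988, 0.195, 0.462, 0.438 and 0.564 in KO tumors. In NTC tumors it was 0.515, 0.951, 0.308, 1.62 and 0.446. NTC replicates 2 and 4 and KO replicate 1 were high. The difference was -0.46 (interval -1.89 to 0.87, exact permutation p = 0.452), and -0.54 (p = 0.444) without NTC replicate 1.

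*Apoe* per *Adgre1* varied little among KO tumors, at 9.96, 10.8, 10.9, 8.06 and 10.0. In NTC tumors it was 7.51, 28.8, 7.14, 30.3 and 10.5. The NTC tumors with the least *Adgre1*, replicates 2 and 4, had the high ratios, and the 3 others lay close to the KO tumors. The SD of the log2 ratio was 0.17 in KO and 1.03 in NTC tumors (0.26 and 0.77 with *Csf1r* as the denominator), and the means differed by -0.48 (interval -1.66 to 0.51, exact permutation p = 0.421), or by -0.70 (interval -1.66 to 0.29, p = 0.238) without NTC replicate 1. *Spp1* per *Adgre1* was 1.57, 0.153, 0.309, 0.725 and 0.833 in KO tumors and 0.785, 2.36, 0.428, 3.27 and 0.654 in NTC tumors. Again NTC replicates 2 and 4 were the highest. The *Spp1* difference was -1.05 (interval -2.96 to 0.98, exact permutation p = 0.222), and -1.17 (interval -3.65 to 1.11, p = 0.222) without NTC replicate 1.

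*Trem2* per *Adgre1* was 0.165, 0.0946, 0.0748, 0.0867 and 0.148 in KO tumors and 0.0938, 0.173, 0.0440, 0.126 and 0.103 in NTC tumors. The groups shared most of their range. With a difference of 0.14 (interval -0.76 to 1.07, exact permutation p = 0.762), or 0.12 (p = 0.817) without NTC replicate 1, *Trem2* per *Adgre1* count did not pass the test, and the interval includes differences in either direction. *Folr2* per *Adgre1* was 0.148, 0.0657, 0.123, 0.177 and 0.117 in KO tumors and 0.269, 0.115, 0.213, 0.134 and 0.187 in NTC tumors. NTC replicates 1, 3 and 5 lay above every KO tumor. The difference was -0.54 (interval -1.35 to 0.22, exact permutation p = 0.143), and -0.39 (interval -1.19 to 0.37, p = 0.286) without NTC replicate 1.

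**Figure D2:**
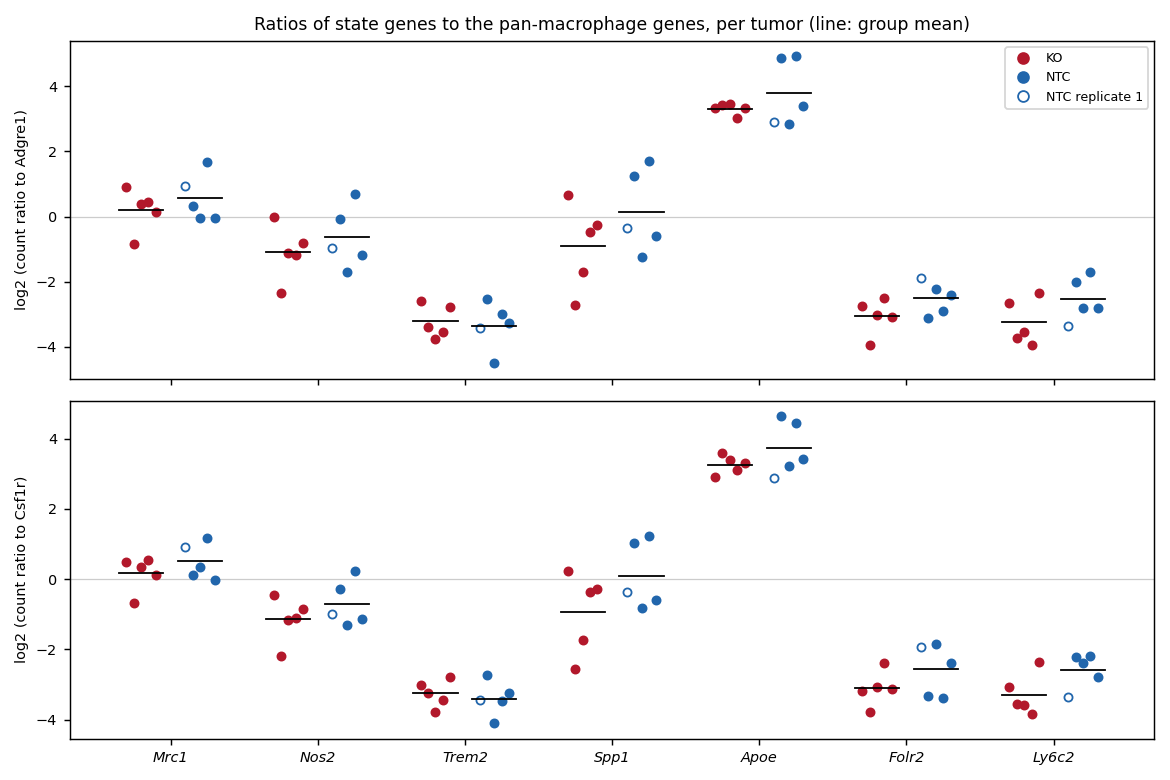
Log2 ratio of each state gene's count to *Adgre1* (top) and to *Csf1r* (bottom) in each tumor, with the group mean as a line and NTC replicate 1 as an open point. The KO points for *Apoe* lie close together, with an SD of 0.17 against 1.03 in NTC tumors for the ratio to *Adgre1* and of 0.26 against 0.77 for that to *Csf1r*, and for *Ly6c2* to *Csf1r* 4 of 5 KO points lie below the 4 filled NTC points.

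Single tumors moved these values. The *Adgre1* ratio differences lay nearest 0 without NTC replicate 4 for *Mrc1* (-0.087), *Nos2* (-0.13) and *Apoe* (-0.19), and without KO replicate 2 for *Spp1* (-0.60) and *Folr2* (-0.33). They were farthest below 0 without KO replicate 1 for *Mrc1* (-0.53), *Nos2* (-0.73) and *Spp1* (-1.44).

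With *Csf1r* as the denominator the other 6 genes gave differences close to those with *Adgre1*. They were -0.35 for *Mrc1*, -0.45 for *Nos2*, 0.15 for *Trem2*, -1.04 for *Spp1*, -0.47 for *Apoe* and -0.54 for *Folr2*. In the 9 tumors they were -0.25, -0.52, 0.14, -1.16, -0.68 and -0.37 in the same order. Exact permutation p-values ran from 0.159 for *Spp1* to 0.603 for *Trem2* over 10 tumors, and from 0.103 for *Apoe* to 0.675 for *Trem2* without NTC replicate 1. The widest interval was that of *Spp1*, from -2.59 to 0.57. For *Trem2* the interval of -0.52 to 0.78 was the narrowest of the 6. These values too moved with single tumors, to -0.14 for *Mrc1*, -0.19 for *Nos2* and -0.64 for *Spp1* without KO replicate 2, to -0.24 for *Apoe* without NTC replicate 2 and to -0.35 for *Folr2* without NTC replicate 3. Over *C1qa*, *C1qb* and *C1qc*, the complement genes of macrophages, the differences were -0.12 for *Mrc1*, -0.23 for *Nos2*, 0.37 for *Trem2*, -0.81 for *Spp1*, -0.24 for *Apoe*, -0.31 for *Folr2* and -0.47 for *Ly6c2*, with exact permutation p from 0.190 (*Ly6c2*) to 0.802 (*Mrc1*). The directions were as with *Adgre1* and *Csf1r*, and all but *Trem2* lay nearer 0.

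**Figure D3:**
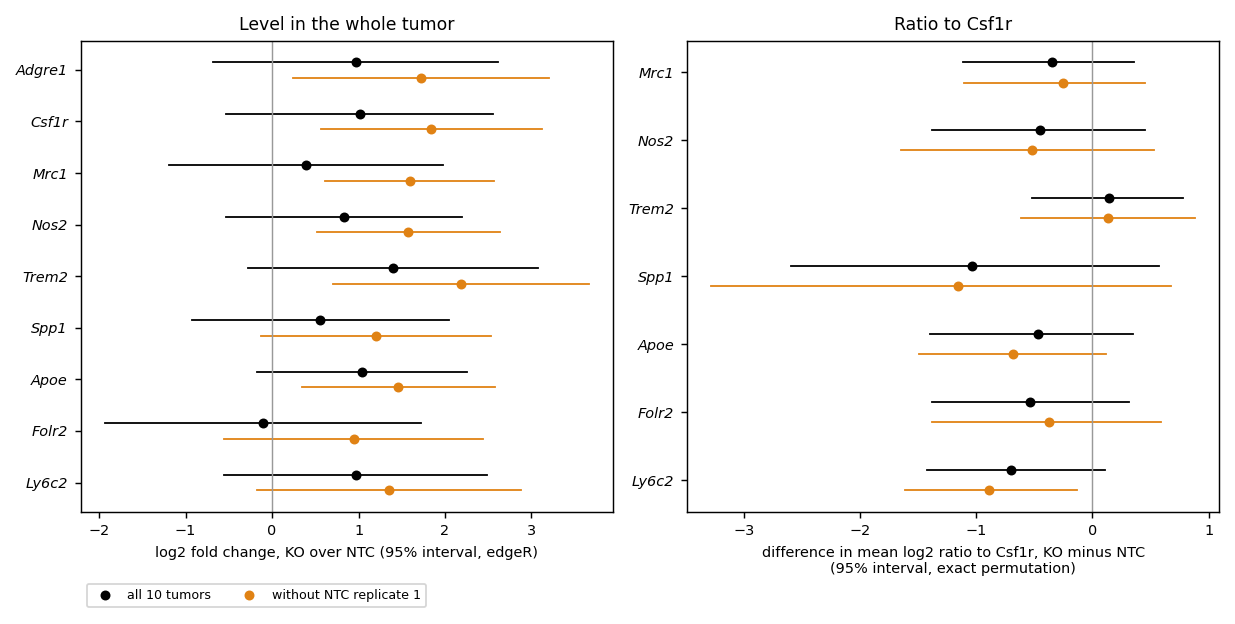
KO against NTC differences on the log2 scale, for levels in the whole tumor (left, edgeR) and for ratios to *Csf1r* (right, exact permutation), over 10 tumors (black) and without NTC replicate 1 (orange), with 95% intervals. The left side shows fitted fold changes and the right side differences of mean logs. On the left *Mrc1* moves from 0.39 to 1.59 when NTC replicate 1 is left out, and on the right its ratio difference moves from -0.35 to -0.25.

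Ratios between the state genes were compared in the same way, for 5 pairs that include *Csf1r* to *Adgre1* above. The lipid-associated and resident-like markers, as *Spp1* to *Folr2*, differed by -0.50 (interval -2.86 to 1.60, p = 0.579 by the same exact test), and *Trem2* to *Folr2* by 0.68 (interval -0.69 to 2.14, exact p = 0.270). Over the 9 tumors these differences were -0.78 (exact p = 0.421) and 0.51 (exact p = 0.484). With 1 tumor left out *Spp1* to *Folr2* ran from -0.92 (NTC replicate 3) to -0.018 (NTC replicate 4), and *Trem2* to *Folr2* from 0.32 (NTC replicate 3) to 1.04 (NTC replicate 2). NTC replicates 2 and 4 had *Spp1* to *Folr2* ratios of 20.6 and 24.4, above the 2.01 to 10.6 of the 8 other tumors. The monocyte-to-macrophage pair *Ly6c2* to *Mrc1* differed by -0.35 (exact p = 0.484), by -0.64 (exact p = 0.183) without NTC replicate 1 and by -0.11 without KO replicate 4. *Cxcl9*, an interferon-induced chemokine that is not a member, was compared with *Spp1* because this pair sets inflammatory against suppressive TAMs. Its ratio was 0.842, 4.66, 4.88, 1.51 and 1.04 in KO tumors and 1.33, 1.60, 5.77, 1.39 and 2.45 in NTC tumors, and the groups overlapped (difference -0.09, interval -1.70 to 1.71, exact p = 0.897, and -0.26, exact p = 0.738, over the 9 tumors). None of the 5 pairs had a p under 0.05 over 10 tumors or without NTC replicate 1.

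A fit of every gene with *Adgre1* and *Csf1r* as the library size placed the members among all genes. On this scale the median log2 fold change of all 15821 genes was -1.72. The state genes ran from -1.02 for *Spp1* to 0.10 for *Trem2*, and from -1.17 to 0.07 for the same genes over the 9 tumors. Over 10 tumors the 95% intervals of all but *Trem2* included the all-gene median. Of the state genes edgeR called 0 of 7, against 0.0126% of all genes, and 0 of 7 had an unadjusted p under 0.05 with a lower level, against 56.1% of all genes. DESeq2 also called 0 of 7 on this scale, against 68.6% of all genes called in either direction. Without NTC replicate 1 edgeR called 0 of 7 lower, against 79.0% of all genes. The share of 56.1%, which counts lower genes only, depended on single tumors. With a tumor left out, genes with an unadjusted p under 0.05 were counted in either direction. They numbered 1004 of 16206 without NTC replicate 4, 1507 of 16083 without NTC replicate 2 and 1845 of 16029 without KO replicate 2. Without KO replicates 5 and 1 they numbered 2042 of 16137 and 2616 of 16079. The count stayed high without KO replicate 3 (8201 of 16017) or 4 (10208 of 16185). It was also high without NTC replicate 3 (9945 of 16056), 5 (10696 of 16023) or 1 (13026 of 16078). In this fit *Adgre1* itself received an interval of -1.39 to 1.39.

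The levels of the other 8 members were compared with that of *Adgre1* across the 10 tumors. High correlations were common among all genes, since *Nos2*, at r = 0.85, ranked 1947 of 15819 by likeness to the mean of *Adgre1* and *Csf1r*. Pearson's r of log2 CPM with *Adgre1* was 0.99 for *Csf1r* (permutation p = 2e-05, adjusted 0.00016), 0.93 for *Folr2* (p = 0.00051, adjusted 0.00109) and 0.92 for *Trem2* (p = 4e-05, adjusted 0.00016), by permutation over 10 tumors. It was 0.90 for *Apoe*, 0.89 for *Mrc1*, 0.87 for *Ly6c2* and 0.81 for *Nos2*, with adjusted permutation p of 0.00109, 0.00109, 0.00109 and 0.00539. *Spp1* (r = 0.52, permutation p = 0.113, adjusted 0.113) did not pass, and its difference from the others was not tested. These are 8 correlations, adjusted by Benjamini-Hochberg over the 8.

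Spearman's rho was 0.95 for *Csf1r* (permutation p = 0.00011), 0.90 for *Folr2* (p = 0.00097), 0.94 for *Trem2* (p = 0.00014), 0.99 for *Apoe* (p = 2e-05), 0.81 for *Mrc1* (p = 0.00712), 0.96 for *Ly6c2* (p = 0.0001) and 0.88 for *Nos2* (p = 0.00152), by permutation. For *Spp1* it was 0.49 (permutation p = 0.154). Without the 2 tumors farthest from the *Adgre1* median, NTC replicates 2 and 4, r was 0.97 for *Csf1r* and *Apoe*, 0.91 for *Trem2*, 0.86 for *Ly6c2*, 0.80 for *Mrc1*, 0.76 for *Nos2*, 0.74 for *Folr2* and 0.58 for *Spp1*. Without NTC replicate 1 it was 0.98 for *Csf1r*, 0.94 for *Folr2*, 0.91 for *Trem2*, 0.90 for *Mrc1*, 0.89 for *Apoe*, 0.86 for *Ly6c2*, 0.79 for *Nos2* and 0.44 for *Spp1*. Within the 5 KO tumors r ran from 0.43 for *Spp1* and 0.65 for *Nos2* to 0.99 for *Apoe*, and within the 5 NTC tumors from 0.68 for *Spp1* and 0.85 for *Nos2* to 0.998 for *Folr2* and *Ly6c2*.

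**Figure D4:**
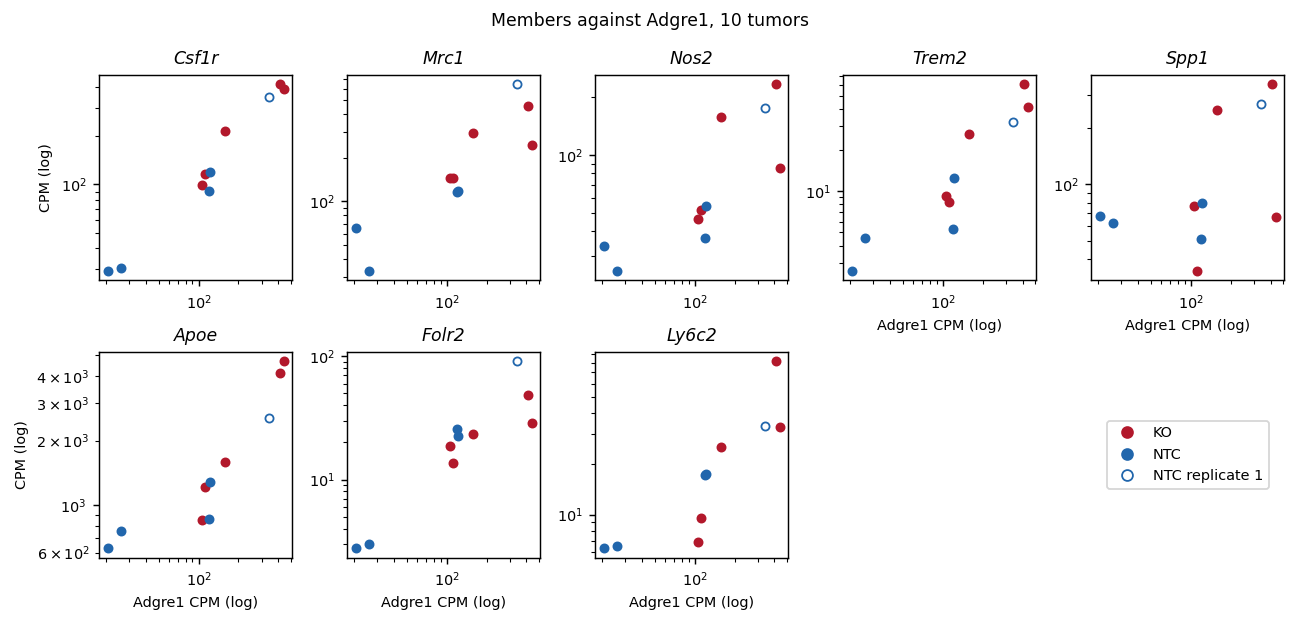
Each member's CPM against *Adgre1* CPM in the 10 tumors, both on log axes, KO in red, NTC in blue and NTC replicate 1 open. *Csf1r* lies on a line with r = 0.99, while *Spp1* (r = 0.52) scatters, with KO replicate 2 at the highest *Adgre1* and at 66.9 CPM of *Spp1*.

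Among 15819 genes, those whose log2 CPM was most like the mean of *Adgre1* and *Csf1r* over the 10 tumors were *Pak1*, *Clec4a3*, *Cmklr1*, *Cfp*, *Neurl3*, *Was*, *Cyp27a1*, *Pde8b*, *Otulinl* and *Tlr1*, with r from 0.992 to 0.997. *Clec4a3* encodes a myeloid lectin, *Cmklr1* a chemerin receptor, *Cfp* the complement regulator properdin, *Was* an actin regulator of blood cells and *Tlr1* a receptor for bacterial lipopeptides. Of the 7 state genes *Trem2* was nearest, at rank 646, and *Spp1* farthest, at rank 4278. These r values are given as a description, since all genes of a tumor share its library and its cell content.

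The promoters of *Mrc1* and *Trem2*, whose correlation with *Adgre1* passed the test, and of *Spp1*, whose correlation did not, are shown from RefSeq on GRCm38.p6 to let their sequences be compared. Each covers 250 bases before and 50 after a start site, and capitals mark GAGGAA or its complement TTCCTC, the letters at the core of sites for PU.1, the transcription factor that directs the myeloid lineage. The *Mrc1* window is chr2:14229164-14229463 and holds 3 matches, that of *Trem2* is chr17:48346151-48346450 with 1, and that of *Spp1* is chr5:104434861-104435160 with 1, all on the plus strand.
Mrc1 promoter: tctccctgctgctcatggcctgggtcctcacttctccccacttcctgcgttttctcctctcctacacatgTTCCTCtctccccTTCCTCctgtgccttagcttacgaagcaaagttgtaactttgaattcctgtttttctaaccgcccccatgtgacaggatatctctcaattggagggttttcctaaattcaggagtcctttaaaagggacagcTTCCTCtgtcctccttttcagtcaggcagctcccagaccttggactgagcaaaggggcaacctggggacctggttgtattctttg
Trem2 promoter: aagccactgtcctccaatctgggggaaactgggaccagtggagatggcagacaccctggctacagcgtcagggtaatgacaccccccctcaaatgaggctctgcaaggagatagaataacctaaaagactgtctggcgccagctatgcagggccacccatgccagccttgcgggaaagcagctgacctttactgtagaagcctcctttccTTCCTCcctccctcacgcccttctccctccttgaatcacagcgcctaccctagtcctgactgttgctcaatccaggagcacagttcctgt
Spp1 promoter: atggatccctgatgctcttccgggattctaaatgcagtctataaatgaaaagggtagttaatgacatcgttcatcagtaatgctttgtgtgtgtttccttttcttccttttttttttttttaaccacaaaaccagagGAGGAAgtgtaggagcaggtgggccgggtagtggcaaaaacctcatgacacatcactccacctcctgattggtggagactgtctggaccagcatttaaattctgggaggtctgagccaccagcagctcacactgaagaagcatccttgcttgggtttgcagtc
Of 32851 promoters of this length, 28.3% hold these letters on either strand. Among the members, 6 had entries with 11 promoters, of which 7 held a match, from 5 genes. The windows shown are the first entry of each gene. The second *Spp1* promoter and both promoters of *Folr2*, whose correlation with *Adgre1* also passed, held no match. A match is a description of the letters.

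The members were then read beside other genes of the same macrophage programs. The pan-macrophage list had 14 of 16 tested genes with a fold change above 0 over 10 tumors and a median log2 value of 0.95, against 0.01 over all genes. Over the 9 tumors it had 16 of 16 and a median of 1.69, with 14 genes higher at an unadjusted p under 0.05, against 12.0% of all genes. *Mertk*, a receptor for dying cells (log2 fold change 1.56), and *Mpeg1*, a pore-forming protein (1.15), were highest, and *Cd14*, a lipopolysaccharide co-receptor (-0.16), and *Itgam*, an integrin chain (-0.02), were lowest. Of the 6 lists none had a gene called in either direction over 10 tumors or over 9. At an unadjusted p under 0.05 the 6 lists held 5 genes over 10 tumors, 4 alternatively activated and 1 inflammatory, against 8.85% of all genes. Over the 9 tumors, where 12.0% of all genes were higher at that p, the other lists had 10 of 15 alternatively activated, 11 of 15 lipid-associated, 5 of 10 resident-like, 7 of 14 inflammatory and 2 of 10 monocyte genes. Genes of a list share the cell content of each tumor, so these counts are not independent evidence either.

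The alternatively activated list, home of *Mrc1*, had 11 of 15 genes above 0 and a median of 0.49, or 15 of 15 and 1.51 without NTC replicate 1. The chemokines *Ccl17* (2.20) and *Ccl22* (2.07) were at its top, and the hemoglobin scavenger receptor *Cd163* (-0.68) and the transcription factor gene *Maf* (-0.18) at its bottom. *Ccl17* and *Ccl22* are also made by dendritic cells, whose 9 markers summed to 53.1 to 134 CPM in KO tumors and 25.3 to 78.0 CPM in NTC tumors. Their part in these values was not tested. *Cd163* stood at 0.56 and *Maf* at 0.56 without NTC replicate 1.

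In the lipid-associated list, with *Trem2*, *Spp1* and *Apoe*, 13 of 15 genes were above 0, with a median of 0.79, and 13 of 15 with a median of 1.20 without NTC replicate 1. The lipoprotein lipase gene *Lpl* (1.49) and *Trem2* (1.40) led. *Gpnmb* (-0.11) and *Cd63* (-0.05), which melanoma cells also express, were last.

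The resident-like list, with *Folr2* and *Mrc1*, was balanced over 10 tumors, with 5 of 10 tested genes above 0 and a median of -0.03. *Igf1* (1.30) and *Gas6* (0.65), both growth factor genes, were highest, and the hyaluronan receptor gene *Lyve1* (-2.002) and the coagulation factor gene *F13a1* (-0.97) were lowest. *Lyve1* stood at 2.87, 3.42, 4.92, 3.57 and 2.67 CPM in KO tumors and at 46.9, 0.328, 14.5, 1.99 and 7.60 CPM in NTC tumors. The KO values were close together, and NTC replicates 1, 3 and 5 were above all of them. Over the 9 tumors the list had 9 of 10 above 0 and a median of 1.27, with *Lyve1* at -0.83.

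The inflammatory list, with *Nos2*, had 10 of 14 tested genes above 0 and a median of 0.49, or 11 of 14 and 1.05 without NTC replicate 1. *Il12b* (2.19), a cytokine subunit, and *Cd40* (0.85), a co-stimulatory receptor, were highest. *Il1b* (-1.43) and the interferon-induced chemokine *Cxcl10* (-0.39) were lowest. The monocyte list had 8 of 10 above 0 and a median of 0.35, or 10 of 10 and 0.86 without NTC replicate 1. *Ly6c2* (0.97) was its highest gene, followed by *Itga4* (0.46), an integrin chain, while *Ifitm6* (-0.52), an interferon-induced membrane protein gene, and *Vcan* (-0.22), a matrix proteoglycan gene, were lowest. The direction of several of these genes rested on NTC replicate 1, and without it *Cd14* was at 1.39, *Itgam* at 1.19, *F13a1* at 0.62, *Vcan* at 1.09, *Il1b* and *Ifitm6* at 0.42. *Gpnmb*, *Cd63* and *Cxcl10* stayed below 0.

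As ratios to *Adgre1* and *Csf1r*, the list medians over 10 tumors were -0.20 for pan-macrophage genes, -0.45 for alternatively activated, -0.95 for lipid-associated, -0.48 for resident-like, -0.78 for inflammatory and -0.93 for monocyte genes, against -1.72 over all genes. No list gene was called on this scale over 10 tumors. Without NTC replicate 1 the medians were -0.29, -0.36, -1.16, -0.33, -0.93 and -1.06 in the same order, and 3 lipid-associated, 1 resident-like, 4 inflammatory and 2 monocyte genes were called lower, against 79.0% of all genes, and none of them was a member.

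**Figure D5:**
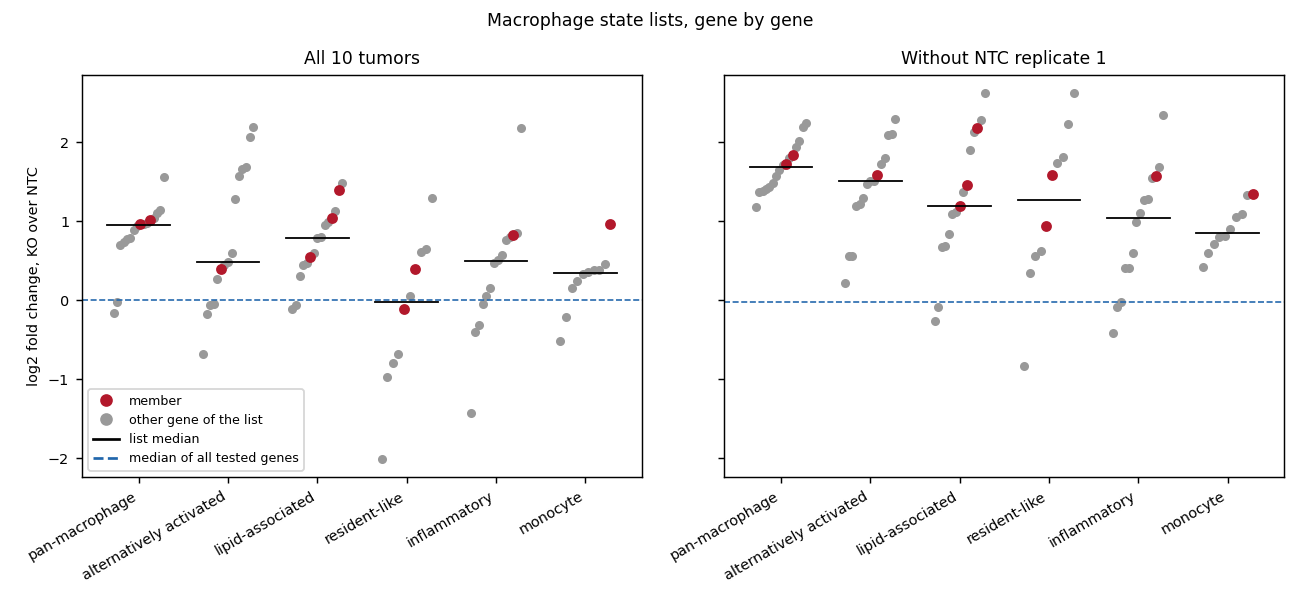
Log2 fold change, KO over NTC, of each tested gene of the 6 lists, over 10 tumors (left) and without NTC replicate 1 (right), with members in red, list medians as black lines and the median of all tested genes as a dashed line. The median of the pan-macrophage list goes from 0.95 to 1.69 and that of the resident-like list from -0.03 to 1.27.

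Markers of other cell types differed between tumors as well. Summed over 8 fibroblast genes the level was 943 to 5409 CPM in KO tumors, 61.6 to 1652 CPM in NTC replicates 2 to 5 and 6144 CPM in NTC replicate 1. For 10 T and NK cell genes it was 50.8 to 243 CPM in KO tumors, 34.4 to 125 CPM in NTC replicates 2 to 5 and 117 CPM in NTC replicate 1. Neutrophil markers (10 genes) summed to 12.5 to 81.2 CPM in KO tumors, 5.02 to 16.2 CPM in NTC replicates 2 to 5 and 149 CPM in NTC replicate 1. B cell markers (6 genes) summed to 7.75 to 36.8, 2.56 to 11.3 and 18.2 CPM in the same order, and adipocyte markers (8 genes) to 37.2 to 176, 9.11 to 78.2 and 233 CPM. Endothelial markers (10 genes), at 144 to 216 CPM in KO tumors and 115 to 196 CPM in NTC replicates 2 to 5, overlapped widely, and NTC replicate 1 had 339 CPM, the most of all tumors. Skeletal muscle markers were highest in KO replicates 4 and 3, at 203 and 39.8 CPM, which had the lowest *Adgre1* of the KO tumors, and reached at most 7.79 CPM elsewhere. Keratinocyte markers were also highest in those tumors, at 6.42 and 22.7 CPM. No gene of these lists was at 0 in all tumors. NTC replicates 2 and 4, lowest in the summed pan-macrophage genes, were also the lowest in fibroblast and in T and NK cell markers. The part of these cells in the member levels was not tested.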

How the data were processed

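Per the labels and the study's methods, the authors trimmed reads with Trimmomatic, aligned them to mm10 with HISAT2 and deposited HTSeq read counts per gene, not normalized. Strand setting and annotation were not given in the sources used here. Summary rows (35.3% to 64.1% of a file) were left out of library sizes. One gene of the original choice is not reported here. Members and lists were chosen with earlier results of these data known.

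Counts were fitted with edgeR 4.0.16 (TMM, filterByExpr, quasi-likelihood test, KO against NTC, Benjamini-Hochberg adjustment). A gene was called at an adjusted p under 0.05 and an absolute log2 fold change above 1. The SE came from the F statistic. Ratios are log2((count + 0.5)/(denominator + 0.5)), compared by 2-sided exact permutation of tumors, with 95% intervals by inverting the test. A second edgeR fit took the geometric mean of *Adgre1* and *Csf1r* counts as library size. Correlations used a prior count of 2 and 100000 permutations. Promoter and miRNA sequences are from RefSeq, and gene positions and lengths are from GENCODE M21 (GRCm38). The text names the members, the 2 highest and 2 lowest genes of each state list, the 10 genes most like *Adgre1* and *Csf1r*, and *Cxcl9*. *Ly6c1* is named for its shared sequence.

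Alternatives were DESeq2 1.42.0, RLE, other filters, no fold threshold, robust dispersion, a replicate block, a pseudocount of 2, other denominators, another length and prior count, and each tumor left out. The fits and permutation tests were tested on simulated data. Software was R 4.3.3, Python 3.11.15, numpy 2.4.6, scipy 1.17.1, pandas 2.3.3 and matplotlib 3.10.9. Each library is a separate tumor by its label. p-values reflect the spread between these tumors.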

Additional observations from a re-analysis of the deposited data

Results flagged for a closer look

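Chance marks about 1 group in 20 by the test used here, in which the gap between the extreme tumor and its nearest neighbor is set against the range of its group. *Spp1* in NTC replicate 1 stood apart at 8.06 log2 CPM, against 5.68 to 6.32 in the other NTC tumors. The test was run in each group for the levels of the 9 members and for the 19 ratios. Over so many groups chance would be expected to mark 1 or more. None of the 19 ratios was marked in this way.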

How the results depend on the processing

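Of the members' fold changes, *Folr2* turned from -0.11 to 0.030 with no filter on low counts and to 0.85 with the replicate block, and ran from -0.43 to 0.94 with a tumor left out, above 0 without KO replicate 3 (0.060) or NTC replicate 1. The 8 other members kept their direction in every alternative, and no member was called in any. Their size moved, however. Without KO replicate 5, *Spp1* went from 0.55 to 0.038, *Mrc1* from 0.39 to 0.095, *Ly6c2* from 0.97 to 0.23, *Nos2* from 0.83 to 0.41 and *Trem2* from 1.40 to 0.95. Without KO replicate 2, *Adgre1* went from 0.97 to 0.66 and *Apoe* from 1.04 to 0.68. The replicate block gave 1.05 for *Mrc1* and 0.31 for *Spp1*. The replicate numbers did not pair the tumors (same-number correlations from -0.29 to 0.63), and the replicate block gave no ratio a p under 0.05, which its 5 pairs cannot reach (smallest possible p 0.0625).

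Over all genes, 1 gene was called higher and 2 lower in KO. DESeq2 called 24 and 72, a minimum of 10 counts 0 and 6, robust dispersion 4 lower, no fold threshold 4 lower and the replicate block 0 lower. With a tumor left out, 1 to 2 were called higher and 0 to 15 lower, the most without NTC replicate 1. As ratios to *Adgre1* and *Csf1r*, 1 gene was called higher and 1 lower. DESeq2 called 6 and 10841, the replicate block 2 lower, and no filter on low counts, chosen after seeing the data, 27 and 169. With a tumor left out, 1 to 12 were called higher and 0 to 12706 lower, the most again without NTC replicate 1 (at most 2 with any other tumor left out). The cause was not tested.

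The *Trem2* ratio difference ran from -0.15 to 0.34 to *Adgre1* and from -0.032 to 0.31 to *Csf1r* with a tumor left out, that of *Csf1r* to *Adgre1* from -0.12 to 0.096 and that of *Cxcl9* to *Spp1* from -0.42 to 0.27. In the fit over all genes the *Trem2* ratio ran from -0.070 to 0.32. *Ly6c2* to *Csf1r* ran from -0.93 (without KO replicate 5, exact permutation p = 0.0317) to -0.56 with a tumor left out, and passed 0.05 in that setting and without NTC replicate 1 only. It was -0.47 (exact permutation p = 0.190) over the C1q genes and -0.60 (exact permutation p = 0.103) over summed pan-macrophage counts. Over that sum the 6 other state genes ran from -0.94 (*Spp1*) to 0.24 (*Trem2*), and none passed.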
